A study of Mus musculus with 9 samples.

Results

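CD200 and CD47 are cell-surface glycoproteins that hold myeloid cells in check, and 7 genes of these ligands and their receptors were followed here in irradiated mouse lung: the ligand genes Cd200 and Cd47, the CD200 receptor family Cd200r1, Cd200r2, Cd200r3 and Cd200r4, and Sirpa, the receptor of CD47. The 7 were picked by name out of 19747 gene symbols on the array, each through the RefSeq accession of its probes. They were picked with the difference between irradiated and control arrays already known, that of Cd200r2 above all, so this difference is given as a description and carries no test. The choice had no threshold. The 7 genes had 8 probes, Cd47 having 2, and each probe lay on the array at a single spot. All 8 probes passed the filter on low signal, and each was over 1.4 times its local background on all 9 arrays.

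The 9 single-color arrays measured total RNA of lung from male C57BL/6 mice aged 10 weeks. The 4 control arrays came from non-irradiated mice and the 5 irradiated arrays from tissue of the left lung after a single dose. Neither the dose nor the region of the lung nor the time after irradiation is given in the labels. The 5 irradiated arrays may therefore differ in dose, region or time, and they were compared with the controls as a single group. They list zoletil and rompun as the anesthetic during irradiation and do not say whether the control mice received it. RNA of replicate experiments was pooled before labeling, so an array averages several animals and the spread between single mice is not visible. The labels do not say that arrays of a group came from separate pools of animals, so every p-value measures the spread between these arrays, which may be technical. Among the irradiated arrays this spread may also hold differences in dose, region or time.

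The level given is the normalized log2 intensity of a probe, on which a difference of 1 is a 2-fold change. Each array had 72.8% to 89.1% of its spots well above background in the scanner's own test and no saturated spot. Correlations between arrays across probes were between 0.975 and 0.990. Sftpc of type II alveolar cells and Scgb1a1 of club cells were the brightest of their lists and had close mean levels in both groups, 19.40 and 19.40 for Sftpc and 19.17 and 19.14 for Scgb1a1. Sftpc spanned 19.36 to 19.43 in both groups, at the top of a scale that quantile normalization makes alike on all arrays. Its closeness therefore does not tell whether these cells differed. A positive difference was found for 2 of 7 type II genes and 1 of 4 club and ciliated cell genes. A pair of arrays stood apart in muscle genes: relative to the control mean, the cardiac muscle list was at -5.62 on irradiated 1 and the skeletal muscle list at 5.26 on control 3. Results are therefore also given without these 2 arrays. The number of arrays limits the precision. Over all 39302 probes tested, 131 (0.333%) passed an adjusted p under 0.05 in limma, 75 (0.191%) of them higher and 56 (0.142%) lower in the irradiated arrays (52 higher and 72 lower with arrays scaled to their 75th percentile), and the median difference was -0.0037.

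CD200 is carried by endothelium, neurons and some lymphocytes, and it binds CD200R1 on macrophages, mast cells and other myeloid cells. CD200R1 has a long cytoplasmic tail that recruits the adaptors DOK1 and DOK2 and through them RasGAP and dampens activation. The other mouse receptors, CD200R2, CD200R3 and CD200R4, have short tails and pair with the adaptor DAP12, the product of Tyrobp, which signals through the kinase SYK toward activation. CD47 is present on nearly all cells and binds SIRPA on phagocytes, whose tail carries inhibitory motifs that recruit the phosphatases SHP-1 and SHP-2, the products of Ptpn6 and Ptpn11. This contact restrains the engulfment of living cells. In lung, surfactant proteins A and D are further ligands of SIRPA.

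The receptor genes Cd200r1, Cd200r4, Cd200r2 and Cd200r3 follow each other in this order on mouse chromosome 16 in the RefSeq gene table, and Cd200 and Cd47 lie further along the same chromosome. Cd200 is the 9th protein-coding gene counted from Cd200r1 and Cd47 the 36th, while Sirpa is on chromosome 2. Promoter windows of RefSeq (build GRCm38.p6, 300 bases, from 250 before to 50 after the gene's start) were found for 5 of the 7 genes. They are printed for the DAP12-pairing receptors, since these genes follow each other on the chromosome and differed on the arrays. Capitals mark the runs of at least 12 bases that the windows of Cd200r4 and Cd200r3 share exactly. All 3 windows are on the plus strand. They lie at chr16:44820478-44820777 for Cd200r4, chr16:44943428-44943727 for Cd200r3 and chr16:44866847-44867146 for Cd200r2.
Cd200r4: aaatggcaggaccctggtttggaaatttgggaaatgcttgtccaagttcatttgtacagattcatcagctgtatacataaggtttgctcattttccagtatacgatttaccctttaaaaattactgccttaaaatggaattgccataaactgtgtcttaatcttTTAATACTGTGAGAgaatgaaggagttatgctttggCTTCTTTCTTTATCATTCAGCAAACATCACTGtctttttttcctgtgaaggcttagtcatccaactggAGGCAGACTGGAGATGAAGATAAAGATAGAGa
Cd200r3: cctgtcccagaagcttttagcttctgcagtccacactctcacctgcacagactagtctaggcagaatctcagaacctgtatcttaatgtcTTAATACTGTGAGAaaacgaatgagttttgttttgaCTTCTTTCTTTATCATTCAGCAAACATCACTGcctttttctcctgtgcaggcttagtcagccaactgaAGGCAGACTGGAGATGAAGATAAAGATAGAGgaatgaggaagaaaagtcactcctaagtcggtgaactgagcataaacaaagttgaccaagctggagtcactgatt
Cd200r2: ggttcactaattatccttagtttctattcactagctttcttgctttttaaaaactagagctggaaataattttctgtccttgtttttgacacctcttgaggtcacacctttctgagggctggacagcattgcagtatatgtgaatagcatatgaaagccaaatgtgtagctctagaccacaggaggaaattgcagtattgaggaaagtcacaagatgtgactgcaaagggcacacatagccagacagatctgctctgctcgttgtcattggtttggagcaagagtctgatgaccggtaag

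The windows of Cd200r3 and Cd200r4 aligned over 156 columns with 140 identical bases (89.7%), from base 70 to 225 of the Cd200r3 window and from base 144 to 299 of the Cd200r4 window. Their longest shared run was 32 bases. The Cd200r2 window shared no run of 12 bases with either, its longest being 9 bases with Cd200r4 and 8 with Cd200r3. On both strands, 5 motifs were searched in the windows of Cd200, Cd47, Cd200r2, Cd200r3 and Cd200r4. TTGCNNAA, a core read by C/EBP factors, matched once on the reverse strand in Cd200r3, at 109 bases before the start, and once in Cd200r4, at 35 bases before it, and 10.8% of 32851 promoter windows held it. Both matches lie at the same place in the 32-base run that these windows share. GGAAGT, a PU.1 core (23.8% of windows), TGANTCA of AP-1 (7.81%), the interferon-stimulated response element (3.44%) and TATAAA (13.6%) had no match in the 5 windows. On the arrays, Cd200r3 and Cd200r4 had unlike values in spite of these windows: Cd200r4 was higher in the irradiated arrays, and Cd200r3 had overlapping groups. A match in a window is a description, and no match says only that these letters are not in it.

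Cd200, the ligand of the CD200 receptors, was well above background on all 9 arrays. Its log2 levels were 14.21, 14.16, 14.37 and 13.91 on control arrays 1 to 4 and 14.68, 14.30, 14.30, 14.39 and 13.81 on irradiated arrays 1 to 5. The groups overlapped, with irradiated 1 the highest and irradiated 5 the lowest of the 9. The group means were 14.16 ± 0.19 (SD, n = 4) and 14.30 ± 0.32 (SD, n = 5), a difference of 0.14 with a standard error of 0.16.

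Cd47, the ligand of SIRPA, was likewise well above background on every array with both probes. Its brighter probe, A_55_P2182483, gave 14.88, 14.19, 14.69 and 14.72 on the control arrays and 14.69, 14.76, 14.67, 14.62 and 14.69 on the irradiated arrays. All 5 irradiated arrays lay inside the control range, which control 1 and control 2 set. The difference was 0.07 (standard error 0.13), and -0.076 without control 2. The other probe, A_51_P221014, gave 14.76, 14.46, 14.56 and 14.68 against 14.71, 14.75, 14.63, 14.54 and 14.53, a difference of 0.02 (standard error 0.09). Both Cd47 probes therefore had overlapping groups and the same lowest control array.

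Cd200r1, the inhibitory receptor, was higher on every irradiated array than on every control array. Its log2 levels were 8.44, 8.29, 8.09 and 7.99 on the control arrays and 8.81, 9.18, 9.31, 9.68 and 9.23 on the irradiated arrays. The means were 8.20 ± 0.20 (SD, n = 4) and 9.24 ± 0.31 (SD, n = 5). The difference of 1.04 (standard error 0.18) is 2.06-fold, and it was at least 3 times the SD of either group. Irradiated 1 was nearest to the controls and irradiated 4 farthest from them. The probe was well above background on all 9 arrays.

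Cd200r4, which pairs with DAP12, separated the groups in the same way. It was at 8.66, 7.64, 7.71 and 8.20 on the control arrays and at 9.37, 9.09, 9.39, 9.72 and 9.36 on the irradiated arrays. Control 1 was the highest control, irradiated 2 the lowest irradiated array and irradiated 4 again the highest. The means of 8.05 ± 0.48 (SD, n = 4) and 9.39 ± 0.22 (SD, n = 5) differed by 1.34 (standard error 0.22), or 2.53-fold, with the probe well above background on every array.

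Cd200r2 had the largest difference of the 7 genes and controls near background. Its log2 levels were 4.91, 4.22, 3.26 and 4.13 on the control arrays and 7.90, 5.59, 7.42, 8.35 and 8.19 on the irradiated arrays. In scanner units, the background-corrected signals were 24.6, 19.4, 17.8 and 17 for the controls and 170, 41.5, 246, 347 and 251 for the irradiated arrays. Irradiated 2 stood well below the other irradiated arrays and still above all controls. The means were 4.13 ± 0.68 (SD, n = 4) and 7.49 ± 1.12 (SD, n = 5), a difference of 3.36 (standard error 0.56).

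The probe of Cd200r2 was well above background on all 5 irradiated arrays and on control 3 alone among the controls, where its level was the lowest of the 9. The lowest level called well above background on an array was 2.69 on control 3 and 5.11, 4.32 and 3.94 on control arrays 1, 2 and 4. The size of this difference varied with the processing. It was 3.28 with each dim value raised to that lowest level, 1.93 (standard error 0.40) in the authors' normalized table and 1.56 (standard error 0.31) after normexp with an offset of 50, a correction that adds a constant to every signal, and the cause of these drops was not tested. The 10.3-fold change that 3.36 stands for is not a measured ratio of 2 detected levels.

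Cd200r3, the DAP12-pairing receptor of mast cells and basophils, had no such gap. It was at 5.43, 4.58, 4.98 and 6.75 on the control arrays, with only controls 3 and 4 well above background, and at 5.67, 5.35, 5.72, 4.89 and 5.91 on the irradiated arrays, all well above background. Control 4 was the highest of the 9 arrays and control 2 the lowest. The difference of 0.08 (standard error 0.41) had no settled direction, since it was -0.14 with arrays scaled to their 75th percentile and -0.15 in the authors' table.

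Sirpa, the CD47 receptor, had 12.79, 13.21, 12.40 and 12.74 on the control arrays and 12.99, 13.15, 13.10, 12.99 and 13.11 on the irradiated arrays. The irradiated values fell within a narrow band inside the control range. The means were 12.78 ± 0.33 (SD, n = 4) and 13.07 ± 0.07 (SD, n = 5), a difference of 0.28 (standard error 0.14) that went from 0.16 without control 3 to 0.43 without control 2.

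**Figure D1:**
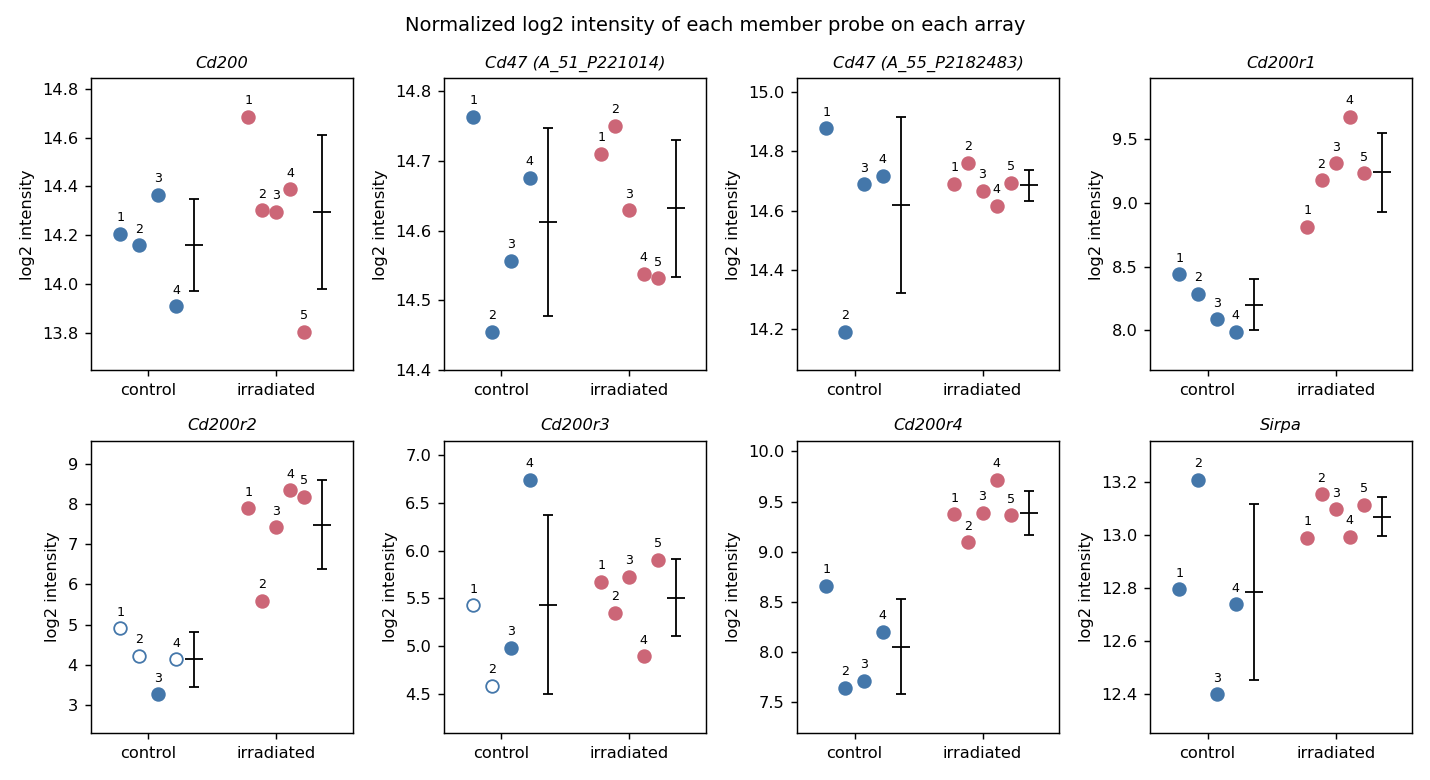
Normalized log2 intensity (vertical axis, each panel with its own range) of the 8 probes of the 7 genes on the 4 control arrays (blue) and 5 irradiated arrays (red). Numbers are array numbers, open circles mark values not well above background, and the bars give the mean and SD of each group. The groups are apart for Cd200r1, Cd200r2 and Cd200r4 and overlap in the other panels.

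Side by side, Cd200r1, Cd200r2 and Cd200r4 had larger differences between the groups than the ligand genes, Cd200r3 or Sirpa. Cd200r1, Cd200r2 and Cd200r4 had all irradiated arrays above all controls, 3 of 7 genes, where 2.51% of all probes did so. Cd200r2 and Cd200r4 passed the adjusted threshold, 2 of 7 genes, against 0.333% of all probes. Both counts describe the choice of the genes and nothing is read from them. Which genes passed varied: of 21 alternatives, Cd200r2 and Cd200r4 each passed in 6 and Cd200r1 in 5. With array weights Cd200r1 alone passed. The difference was larger than that of 99.97% of probes for Cd200r2, 99.3% for Cd200r4, 98.6% for Cd200r1, 85.7% for Sirpa, 72.8% for Cd200, 64.3% for Cd200r3 and 62.9% for Cd47. The place of Cd200r2 rests on controls near background and on a difference that was 1.56 to 3.41 in other processing. The median difference of the 7 genes was 0.28.

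The differences of Cd200r1 and Cd200r4 moved little when arrays were left out. Cd200r1 stayed between 0.93 and 1.15 and Cd200r4 between 1.20 and 1.54 with each of the 9 arrays left out in turn, and Cd200r2 between 3.07 and 3.83. Without irradiated 1 and control 3 together, the arrays that stood apart in muscle genes, the differences were 1.11 for Cd200r1, 2.97 for Cd200r2 and 1.23 for Cd200r4. The same exclusion gave 0.11 for Cd200, 0.09 for Cd47, -0.12 for Cd200r3 and 0.18 for Sirpa. The count of 2 genes past the threshold describes these fits and is no test of the genes. Over 21 alternatives it went from 0 to 3, and it was 0 in the authors' table, with the replicate number as a block, without an intensity trend, at an adjusted p under 0.01, without irradiated 1 and control 3 together, and when control 2, 3 or 4 or irradiated 3, 4 or 5 alone was left out.

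**Figure D2:**
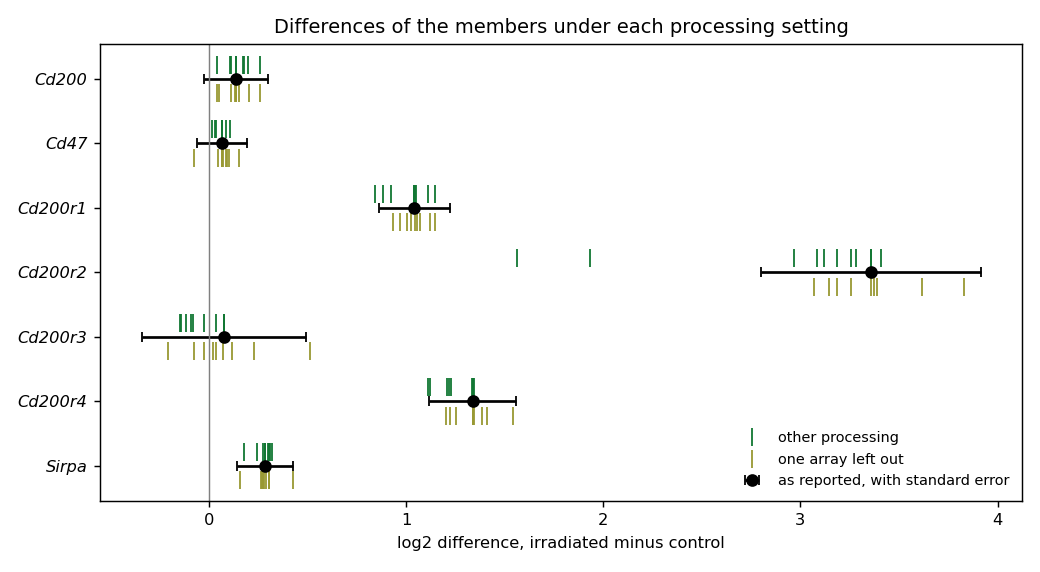
Log2 difference, irradiated minus control (horizontal axis), of each gene's brightest probe. The black point and bar give the reported value and its standard error, green ticks the other processing alternatives and olive ticks the fits without 1 array. Cd200r1 and Cd200r4 keep a narrow range, the ticks of Cd200r2 reach down to 1.56, and those of Cd200r3 lie on both sides of 0.

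No slide was named in the fields used here, but 4 pairs of arrays, each of a control and an irradiated array, lay closest to each other in the position of the spots on the scan image and in local background, and irradiated 1 had no partner. Within these pairs the irradiated array was higher for Cd200r1 by 0.74, 1.03, 1.59 and 1.24. Cd200r4 gave 0.44, 1.75, 2.01 and 1.17, and Cd200r2 gave 0.68, 3.20, 5.08 and 4.05. For these 3 receptors the pair of control 1 and irradiated 2 had the smallest difference and the pair of control 3 and irradiated 4 the largest. The CD47 receptor Sirpa gave 0.36, -0.11, 0.59 and 0.38, and Cd200r3 gave -0.08, 1.14, -0.09 and -0.84, so neither had one direction in all 4 pairs. Cd200 was between -0.10 and 0.14 in the pairs and the brighter Cd47 probe between -0.12 and 0.47. With the pairs as a block the differences were 1.15 for Cd200r1, 3.26 for Cd200r2, 1.34 for Cd200r4, 0.30 for Sirpa, 0.07 for Cd47, 0.04 for Cd200 and 0.03 for Cd200r3. Irradiated 1, which has no partner, drops out of that fit, and the same differences were found by leaving it out alone. In the fit with the pairs as a block, Cd200r1 alone of the 7 genes passed the adjusted threshold. Cd200r2 and Cd200r4 did not pass there. Without irradiated 1 and with no block, Cd200r1, Cd200r2 and Cd200r4 passed.

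CD200 receptors are made by myeloid cells, and the level of a macrophage marker list was above all controls on 4 of the 5 irradiated arrays. In RNA of a tissue, more cells of a type and more RNA per cell cannot be told apart. Of 9 macrophage markers, 8 were found on the array, all well above background on all 9 arrays, and all 8 had a positive difference, from 0.089 for Csf1r, the brightest of the list, to 0.98 for C1qb. None passed the adjusted threshold and 5 had an unadjusted p under 0.05 in limma, where 0.416% and 12.3% of the brightest probes of all genes did. Mrc1, the mannose receptor, was nearest to the adjusted threshold (0.60, adjusted p = 0.0652). The mean level of the list, relative to the control mean, spanned -0.21 to 0.30 in the controls and was 0.98, 0.95, 0.85 and 0.60 on irradiated arrays 2 to 5. On irradiated 1 it was -0.05, inside the control range. On that same array Cd200r1 (8.81), Cd200r2 (7.90) and Cd200r4 (9.37) were above every control array. On irradiated 2, where the list was highest, Cd200r2 (5.59) and Cd200r4 (9.09) had their lowest irradiated values. Cd200r1 went the other way, with its lowest irradiated value on irradiated 1, where the list was lowest of the irradiated arrays.

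Relative to this macrophage level, Cd200r1, Cd200r4 and Cd200r2 were above all controls on irradiated arrays 1, 3, 4 and 5, and irradiated 2 alone lay inside the control range. Cd200r1 minus the list level spanned -0.09 to 0.10 in the controls and -0.01 to 0.66 in the irradiated arrays, a mean difference of 0.37. Cd200r4 minus the list level went from -0.45 to 0.31 and from 0.06 to 1.38, a mean difference of 0.67. Cd200r2 minus the list level had a mean difference of 2.69, whose size is as uncertain as that of Cd200r2 itself since 3 of its controls were not well above background, with controls from -0.66 to 0.48 and irradiated arrays from 0.48 to 3.82, of which irradiated 2 fell just below control 1, a value not well above background. The part of the macrophage markers in the receptor values was not tested.

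Marker lists of other cells known for CD200 receptors or their ligand were read on the same arrays. The alveolar macrophage list had a positive difference for 3 of its 8 genes, among them the brightest, Chil3 (0.68, adjusted p = 0.604), and its largest was that of Krt79 (-1.14, adjusted p = 0.190), which passed without irradiated 1 (adjusted p = 0.0495). In that same limma fit Itgax of this list passed as higher (0.81, adjusted p = 0.0394). With the scan pair block Krt79 passed as lower (-1.34, adjusted p = 0.0185) and Plet1 as higher (0.50, adjusted p = 0.0394). This list had a median difference of -0.19 and levels from -0.25 to 0.51 in the controls and from -0.28 to 0.22 in the irradiated arrays. The mast cell and basophil list, of cells that carry CD200R3, had a median difference of -0.51, and 3 of its 11 genes had a positive one. Its level on control 4, where Cd200r3 was highest, was 0.41, the highest of the 9 arrays, and on irradiated 3 it was 0.38. It was at -0.64 on irradiated 5, where Cd200r3 was highest of the irradiated arrays (5.91). On irradiated 1 the list was at -0.73, its lowest, with Cd200r3 at 5.67. Ms4a2, the beta chain of the IgE receptor, was well above background on 2 control arrays and on 0 irradiated arrays. The neutrophil list had a median of -0.71 and levels from -0.75 to 0.77 in the controls and from -1.56 to 0.072 in the irradiated arrays. The monocyte list was at 0.26, 0.12, 0.17 and 0.16 on irradiated arrays 2 to 5, above the highest control at 0.073, and at -0.27 on irradiated 1. Its genes did not go one way: F13a1, a coagulation factor chain, was at -0.50 (adjusted p = 0.0762) with every irradiated array below every control, and Plac8 was at -0.13, Ccr2 at 0.083 and Cx3cr1 at 0.090. The dendritic cell list was at 0.75, 0.67, 0.35 and 0.47 on irradiated arrays 2 to 5 and at -0.16 on irradiated 1, with controls from -0.48 to 0.52, so that only irradiated 2 and 3 lay above all controls. The monocyte list had a median difference of 0.083 and held the only marker that passed, the matrix gene Fn1 (0.90, standard error 0.13, adjusted p = 0.0326), higher on all 5 irradiated arrays. Fn1 kept its side of the threshold in 1 of the 9 fits with an array left out, that without irradiated 1. Endothelium, a source of CD200, had a median of -0.20 and levels from -0.10 to 0.14 in the controls and from -0.27 to 0.11 in the irradiated arrays. The part of these cells in the values of the 7 genes was not tested.

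**Figure D3:**
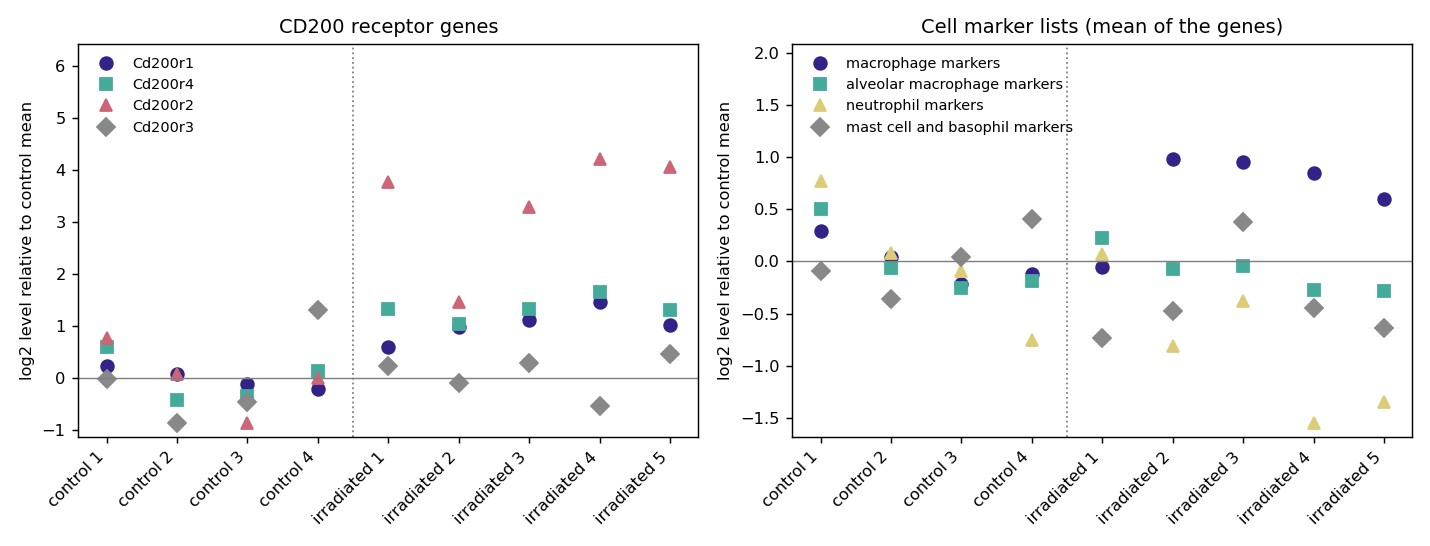
Left, log2 levels of the 4 CD200 receptor genes relative to their control means, by array; right, the mean log2 level of 4 marker lists on the same arrays, also relative to the control mean. On irradiated 1 the macrophage list is at -0.05 while Cd200r1, Cd200r2 and Cd200r4 lie above every control array.

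The genes whose profiles over the 9 arrays were nearest to that of each of the 7 genes were found by the root mean square difference of centred log2 values, over 19653 genes. For Cd200r1 these were Fn1 (0.147), Ctsd (0.154) and Cpxm1 (0.157), where the median over all genes was 0.631. For Cd200r4 they were Atp6v0d2 (0.224), Slc39a12 (0.238) and Ccl6 (0.262), with a median of 0.778, though Slc39a12 was well above background on only 1 control and 3 irradiated arrays. Among the genes near to Cd200r2 were Tmem252 (0.863) and Ptprn (0.901), with a median over all genes of 1.88, though Ptprn was well above background on only 2 control arrays. For Cd200r3 the nearest were Blk (0.264), Gpr18 (0.289) and Qsox2 (0.304). For Sirpa they were Hsp90b1 (0.067), Erp29 (0.081) and Stat3 (0.082). Cd200 was nearest to Atad5 (0.071), Smndc1 (0.077) and Zfp820 (0.079), and Cd47 to Yars2 (0.045), Tbrg1 (0.053) and Rsu1 (0.053). Among the 7 genes themselves, the smallest distances were those of the ligands Cd200 and Cd47 (0.299) and of the receptors Cd200r1 and Cd200r4 (0.334). The ligand distance lay near the medians over all genes, 0.357 for Cd200 and 0.321 for Cd47. That of Cd200r1 and Cd200r4 lay well below theirs (0.631 and 0.778). All these distances include the difference between the groups, 1.04 for Cd200r1 and 1.34 for Cd200r4. That difference was known when the genes were picked, so nothing is read from this closeness. Cd200r2 was at 1.21 from Cd200r4, its nearest of the 7, and neither ligand was nearer to its own receptor than to the other ligand. Nothing is read from that order, since the distance of Cd47 and Sirpa (0.355) also lay near the medians over all genes.

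The genes that act with these receptors were read from 6 lists, with the brightest probe of each gene, of which 58 were found. None of them passed the adjusted threshold, where 0.416% of such probes did over all genes, and 12.3% had an unadjusted p under 0.05 (9.94% of all probes). Of the CD200 receptor signaling list, 7 of 7 genes were found, 2 had an unadjusted p under 0.05, and the median difference was 0.032 beside 0.0085 for all genes. Tyrobp, the DAP12 adaptor of Cd200r2, Cd200r3 and Cd200r4, had the largest difference (0.42, standard error 0.16, adjusted p = 0.383), from 14.66 ± 0.30 to 15.07 ± 0.23, with overlapping groups. Dok1, the adaptor of Cd200r1, was at 0.31 (standard error 0.11, adjusted p = 0.340) with every irradiated array above every control, and Dok2, its other adaptor, at 0.28 (standard error 0.25, adjusted p = 0.814) with overlapping groups. The kinase gene Syk (0.03), the phosphatase gene Inpp5d (0.03), the adaptor gene Hcst (-0.0012) and Rasa1, which encodes RasGAP (-0.086), had differences smaller than their standard errors.

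The SIRPA signaling list had 7 of 7 genes found, 0 with an unadjusted p under 0.05 and a median of -0.022. Ptpn6 was at -0.079 and Ptpn11 at 0.10, the phosphatases that SIRPA recruits, and the largest difference was that of the macrophage adaptor Skap2 (0.16, adjusted p = 0.636). Among the other ligands and partners of CD47 and SIRPA, 9 of 9 genes were found, 3 had an unadjusted p under 0.05, and the median was 0.27. Thbs1, which encodes thrombospondin 1, a soluble ligand of CD47, led this list (0.62, standard error 0.23, adjusted p = 0.380). Its groups overlapped, at 12.82 to 13.28 in the controls and 12.97 to 14.35 in the irradiated arrays. The integrin gene Itgb1 had all irradiated arrays above all controls (0.27, adjusted p = 0.308), while the SIRPA ligand genes Sftpd (0.27, adjusted p = 0.630) and Sftpa1 (-0.038, adjusted p = 0.988) had overlapping groups. Of the paired SIRP beta receptors, 1 of 3 was found, Sirpb1a, at 0.053.

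Of 18 other receptors with inhibitory motifs, 17 were found, 3 had an unadjusted p under 0.05, and the median was 0.18, with differences from -0.49 to 0.79. Fcgr2b, the inhibitory Fc receptor, had the largest (0.79, standard error 0.29, adjusted p = 0.360), followed by Lilrb4a (0.65, adjusted p = 0.442). Lilrb4a passed without irradiated 1 (0.90, adjusted p = 0.0134), and so did Thbs1 (0.82, adjusted p = 0.0486). With the scan pairs as a block, 6 of the 58 genes passed: Fcgr2b (0.97, adjusted p = 0.0261), Thbs1 (0.82, adjusted p = 0.0372), Lilrb4a (0.90, adjusted p = 0.0416), Mertk (0.36, adjusted p = 0.0439), Pros1 (0.43, adjusted p = 0.0485) and Lrp1 (0.35, adjusted p = 0.0496). That fit called 1099 of all probes. It leaves out irradiated 1, and without irradiated 1 and with no block 2 of the 58 genes and 476 of all probes passed.

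The genes of apoptotic cell uptake, the step that CD47 and SIRPA restrain, had 17 of 17 found and 8 with an unadjusted p under 0.05, and the median was 0.20. Tyro3, a receptor tyrosine kinase of the TAM family, had the largest difference (-0.68, standard error 0.16, adjusted p = 0.137), with every irradiated array below every control, as for 1.65% of all probes, at 12.19 to 12.82 in the controls and 11.53 to 12.09 in the irradiated arrays. The other TAM receptor genes had positive differences, 0.34 for Mertk (adjusted p = 0.467) and 0.26 for Axl (adjusted p = 0.662), with overlapping groups. Of the genes of bridging proteins, Mfge8 (0.66, adjusted p = 0.166), Gas6 (0.58, adjusted p = 0.163) and Pros1 (0.49, adjusted p = 0.144) were higher on all 5 irradiated arrays than on any control, as was the scavenger receptor gene Stab2 (0.46, adjusted p = 0.255) and as were 2.51% of all probes. None of these passed over all probes.

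**Figure D4:**
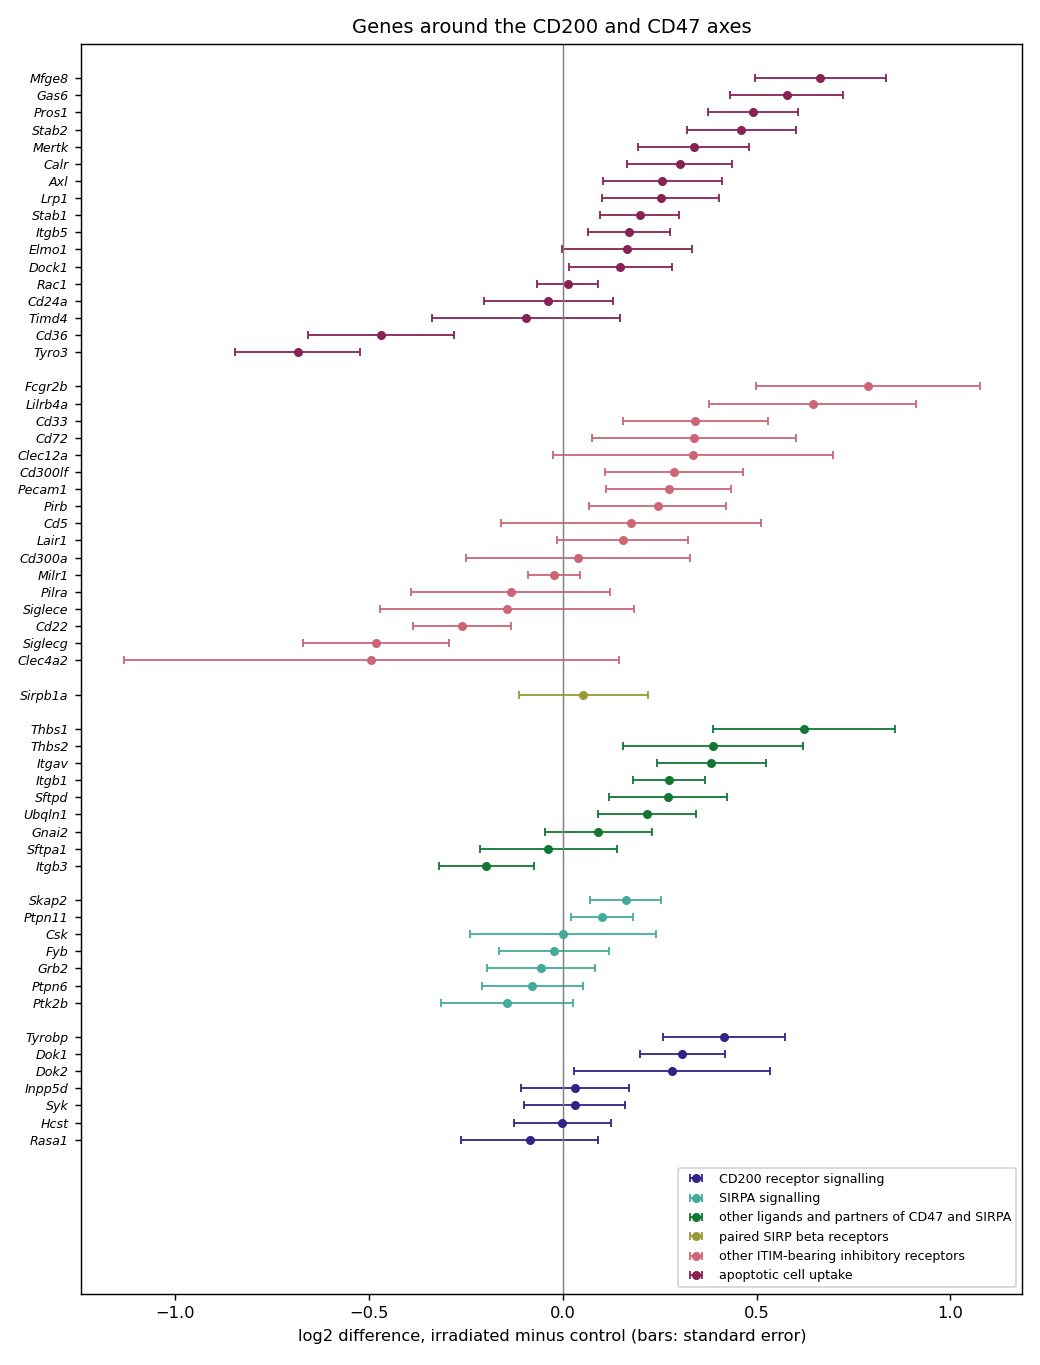
Log2 difference, irradiated minus control (horizontal axis), with its standard error, for the brightest probe of the 58 genes around the CD200 and CD47 axes, colored by list. Tyro3 lies lowest at -0.68 and Fcgr2b highest at 0.79, and no gene passed the adjusted threshold.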

How the data were processed

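Total RNA of lung was hybridized to 9 Agilent single-color arrays (4 control, 5 irradiated). The intensity values that the authors deposited came from the Feature Extraction software and were not normalized between arrays. Marks of other kinds deposited with each spot give saturation, outliers and detection well above background. The authors also deposited a table of quantile-normalized intensity with a median of 2054 to 2056 on each array, whose common distribution is not explained; it was used as an alternative. Written spot numbers did not match that table (rank correlation -0.00591 to 0.00458), so spots were numbered by image position, which gave 1.00. A genome build is not given in the sources used here.

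Control and outlier spots were left out, and probes over 1.4 times local background on at least 4 arrays were kept (39302 of 39429, of which 88 had a missing value). The processed signal was quantile normalized as log2 values. RefSeq accessions gave symbols for 26049 probes through a RefSeq gene table (GRCm38.p6, names and gene order only). Irradiated and control arrays were compared in limma 3.58.1 (R 4.3.3), whose variance followed an intensity trend, without covariates. P-values were adjusted by Benjamini-Hochberg across the kept probes, and an adjusted p under 0.05 was the threshold. The script was tested on simulated data. Sequences were aligned with Biopython 1.88 in Python 3.11.15.

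The 7 genes and all lists were chosen with earlier results of these data known, and no list was tested as a set. Named were the 7 genes, the genes of each list past the threshold, the largest difference of each pathway list that did not pass, the brightest gene of each marker list, and the 3 genes with the nearest profile to each of the 7, of which 1 is not reported here. Genes named beyond this rule (among them Dok1, Itgb1, Lilrb4a, Mfge8, Gas6, Pros1, Stab2, C1qb, Mrc1 and Ms4a2) were chosen after their values were seen. Sirpb1b, Sirpb1c, Ceacam1, Cd68, Ly6c2, Ly6g, Zbtb46, Rtkn2 and Scgb3a2 were not found through the gene table. Probe sequences were not used here, and cross-hybridization between the CD200 receptor genes was not tested.

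Alternatives were scaling to the 75th percentile, normexp (offset 50), the filter on all 9 arrays or none, the authors' table, a replicate block, a scan pair block, no intensity trend, array weights, an adjusted p under 0.01, averaging a gene's probes, and each array left out. After seeing the data, dim values were also raised to the lowest level well above background, and irradiated 1 and control 3 were left out together. The labels number arrays within each group, and the deviations of same-numbered arrays from their group means correlated at 0.042, -0.043, -0.095 and -0.056, so the numbers were not taken to pair arrays.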

Additional observations from a re-analysis of the deposited data

Results flagged for a closer look

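Of 60 gene or list levels within a group of arrays, 4 (6.67%) had 1 array well apart from the rest, where chance gives about 5%. None of the 4 was a level of the 7 genes. The monocyte list was at -0.27 on irradiated 1, with the other irradiated arrays at 0.12 to 0.26. The mast cell and basophil list was at 0.38 on irradiated 3, with the others at -0.73 to -0.44. The cardiac muscle list was at -5.62 on irradiated 1, with the others at -0.50 to 0.35. The skeletal muscle list was at 5.26 on control 3, with the other controls at -1.93 to -1.64. All are log2 levels relative to the control mean.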

How the results depend on the processing

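Cd200, Cd200r1, Cd200r2, Cd200r4 and Sirpa kept a positive difference under the alternatives run. Cd200r2 was at 1.56 after normexp and 1.93 in the authors' table. Cd200r3 turned to -0.14 with 75th percentile scaling, -0.091 after normexp, -0.15 in the authors' table, -0.080 with array weights and -0.12 without irradiated 1 and control 3. With each array left out, the differences lay between 0.038 and 0.26 for Cd200, -0.076 and 0.15 for Cd47, 0.93 and 1.15 for Cd200r1, 3.07 and 3.83 for Cd200r2, -0.21 and 0.51 for Cd200r3, 1.20 and 1.54 for Cd200r4, and 0.16 and 0.43 for Sirpa.

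The 131 probes past the threshold became 197 with the filter on all 9 arrays, 44 in the authors' table, 1099 with the scan pair block (which also leaves out irradiated 1), 44 without an intensity trend, 5 at an adjusted p under 0.01, and 5 to 476 with an array left out (46, 14, 5 and 8 when the omitted array was control 1, 2, 3 or 4, and 476, 14, 6, 18 and 23 when it was irradiated 1, 2, 3, 4 or 5). Lower probes were 42.7% of calls, 58.1% with 75th percentile scaling (which moved the median of all probes to -0.074), 75% in the authors' table, 29.5% without the trend, 20.0% at 0.01 and 8.70% to 56.5% with an array left out (lowest without irradiated 5, highest without control 1). Of the pathway genes, 0 passed, 6 with the scan pair block, 1 without irradiated 1 and control 3, and 0 to 2 with an array left out. Of the marker genes 1 passed, 2 with the filter on all 9 arrays, 16 with the scan pair block, 0 without the trend, 0 at 0.01, 2 without irradiated 1 and control 3, and 0 to 10 with an array left out. Fn1 lost its call at 0.01 and without the trend (adjusted p = 0.0676) and lay between 0.81 and 0.98 with an array left out. The cause of these shifts was not tested.

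With the replicate number as a block, over the arrays numbered 1 to 4, 1 probe passed (3267 at an unadjusted p under 0.05), 0 marker genes passed, Cd200r3 was at -0.024 and Fn1 at 0.85 (adjusted p = 0.302). The numbers were not taken to pair the arrays, and the labels do not say whether they do. Signal near background in the controls limits the sizes of Cd200r2 and Cd200r3.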

Other observations

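Other cell types of the lung were read from their marker lists on the same arrays. None of the genes of these lists passed the adjusted threshold over all probes in limma, but some did in alternatives. Without irradiated 1, Pdpn (0.55, adjusted p = 0.0378), Cd209a (0.68, adjusted p = 0.0495) and Lat (0.60, adjusted p = 0.0298) passed as higher. Kit (-0.96, adjusted p = 0.0211) and Cyp2f2 (-0.64, adjusted p = 0.0305) passed as lower in that fit. With the scan pair block these passed again, with Tie1, Etv5 and Slc34a2 as lower. Pdpn also passed with the filter on all 9 arrays (adjusted p = 0.0475). The type I alveolar list, whose brightest gene was the homeobox gene Hopx (0.083, adjusted p = 0.897), had a median difference of 0.32, and all 4 of its genes had a positive one. Its level was 0.16 to 0.42 on the irradiated arrays and -0.13 to 0.099 on the control arrays. Pdpn, a surface glycoprotein gene of these cells, was higher on all 5 irradiated arrays than on any control (0.52, adjusted p = 0.0631). The type II alveolar list, led by the surfactant gene Sftpc (0.0073, adjusted p = 0.998), had a median of -0.19, and the club and ciliated cell list, led by Scgb1a1 (-0.030, adjusted p = 0.952), one of -0.092. Vwf, the brightest endothelial gene, was at -0.24 (adjusted p = 0.617).

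Among immune cells, the dendritic cell list, whose brightest gene was Siglech (-0.15, adjusted p = 0.893), had a median of 0.36, the T cell list one of 0.015, led by Cd2 (-0.021, adjusted p = 0.986), and the B cell list one of -0.32, led by Cd79b (-0.38, adjusted p = 0.358). Csf3r, the brightest neutrophil marker, was at -0.20 (adjusted p = 0.831), and Hdc, which makes histamine and was the brightest of the mast cell and basophil list, at 0.079 (adjusted p = 0.963). Kit, the stem cell factor receptor of mast cells, was lower on all 5 irradiated arrays than on any control (-0.83, adjusted p = 0.0880). The neuron list had a median of -0.37, led by Snap25 (-0.55, adjusted p = 0.279). The cardiac and skeletal muscle lists had medians of -1.26 and -1.93, led by Actc1 (-0.78, adjusted p = 0.675) and Acta1 (-1.51, adjusted p = 0.643), and a single array stood apart in each.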
